A study of Mus musculus with 2 samples.

Results

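The tumour necrosis factor (TNF) ligand superfamily and its receptor superfamily were examined in whole mouse pancreas that lacked nardilysin in the cells descended from Ptf1a-expressing progenitors. The genes were Tnf, Lta, Ltb, Ltbr, Cd40, Cd40lg, Cd27, Cd70, Fas, Fasl, Eda, Edar and every gene whose symbol begins with Tnfsf or Tnfrsf, found through the RefSeq accession of each array probe. The gene table held 45 such genes, and 43 of them had a named probe, among 22911 named genes on the array. They were 18 ligands and 25 receptors, and the 2 without a named probe were Tnfsf13, a ligand of B cells, and Tnfsf13os, a long non-coding RNA. The rule itself uses gene names and no measured value.

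The Nrdc-cKO group was pancreas of male C57BL/6 mice of genotype Ptf1a-Cre; Nrdcflox/flox, and the WT group was pancreas of males of the same strain. Both were 5 weeks old and gave total RNA to 1 array each, with no word in the labels on whether an array held 1 mouse or a pool, and the study asked what nardilysin does in the exocrine gland. Cre under Ptf1a is known to recombine in pancreatic epithelium and not in the immune, vascular or stromal cells of the gland, and the labels do not say whether WT mice carried Cre or floxed alleles. A single array in each group gives no spread between animals, so nothing below was tested and every difference is one between these arrays.

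Ligands of this superfamily are mostly trimeric membrane proteins that metalloproteinases such as ADAM17 can release, and nardilysin is known to enhance that release for TNF. Receptors with a death domain can assemble complexes that activate caspases, and most others bind TRAF adaptors and activate NF-kappaB. In the pancreas these signals are known from immune cells in pancreatitis and diabetes, from the death of acinar and beta cells, and from the organisation of lymphoid tissue by lymphotoxin.

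A level is the log2 processed intensity minus the 75th percentile of its array, and a difference is Nrdc-cKO minus WT. The 75th percentile was 227 intensity units on the Nrdc-cKO array and 70.8 on the WT array, and the spots well above background were 60.3% of the non-control ones on the Nrdc-cKO array, against 46.3% on the WT array. Nrdc itself had a level of -1.28 on the Nrdc-cKO array and 1.93 on the WT array by 1 probe, a difference of -3.21, but the deleted part of the gene is not given and a probe outside it would check nothing. Of 14 acinar marker genes all 14 were past 2-fold lower in Nrdc-cKO, against 17.3% of all genes measured on both arrays. The summed level of the 14, on a linear scale relative to the 75th percentile, was 12357 on the Nrdc-cKO array and 53547 on the WT array. The balance of all genes moved with the scaling: genes at least 2-fold higher were 42.5% of those past 2-fold here, 53.0% with the percentile over detected probes, 58.1% with normexp and quantile scaling, 60.1% with loess, 72.9% in the value table of the authors and 98.9% with spike-in scaling. The median difference of all genes was -0.18 here, 0.31 in the value table, 1.71 with spike-in scaling, and from -0.12 to 0.08 with the other scalings and normexp. Signs below are those of the difference scaled to the 75th percentile, unless another scaling is named.

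More of the superfamily was detected on the Nrdc-cKO array, with 33 of 43 genes there and 20 of 43 on the WT array. Detected genes were 69.2% of all named genes on the Nrdc-cKO array and 57.7% on the WT array, and the part of this difference between the arrays in the members' detection was not tested. Measured on both arrays were 19 members, 6 ligands and 13 receptors. Past 2-fold higher in Nrdc-cKO were 8 of them (42.1%), against a background of 12.8% of the 13001 genes measured on both arrays. Past 2-fold lower was 1 (5.26%), against 17.3%. Higher members were 88.9% of those past 2-fold here. They were 100.0% with spike-in scaling (18 higher, 0 lower), with normexp and quantile scaling (5 and 0) or with bright probes only (2 and 0). The share was 69.2% with no filter on dim probes, 80.0% with the brightest probe of a gene and 83.3% with normexp and the 75th percentile, and it lay between 88.9% and 92.9% in the others. The 8 were Ltb, Tnfsfm13, Tnfrsf19, Tnfrsf12a, Tnfrsf23, Tnfrsf10b, Tnfrsf25 and Fas, and the 1 was Tnfrsf21. The members' median difference was 0.68, with 0.70 over the ligands and 0.68 over the receptors, and 13 of 19 lay above 0, against 41.3% of all genes.

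Seen only in Nrdc-cKO were 14 more members (32.6%), against 12.4% of all named genes. Such a gene has a lower limit, or bound, in place of a fold: its level on the bright array over the higher of its own level and the lowest detected level on the dim array. That bound was at least 2-fold for 5 of the 14 (35.7%), against 22.2% of all genes seen on this array only. Tnfsf18 alone was detected on the WT array only, as were 0.873% of named genes, and its bound passed 2-fold, as it did for 100.0% of these. The lowest detected level was -4.18 on the Nrdc-cKO array and -2.64 on the WT array. A gene seen on the WT array only, with an Nrdc-cKO level at or under -4.18, therefore passed 2-fold whatever its WT level. This held for Tnfsf18, at -5.80 on the Nrdc-cKO array, so its passing 2-fold was fixed by the limits. The remaining 9 members were not well above background on either array.

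**Figure D1:**
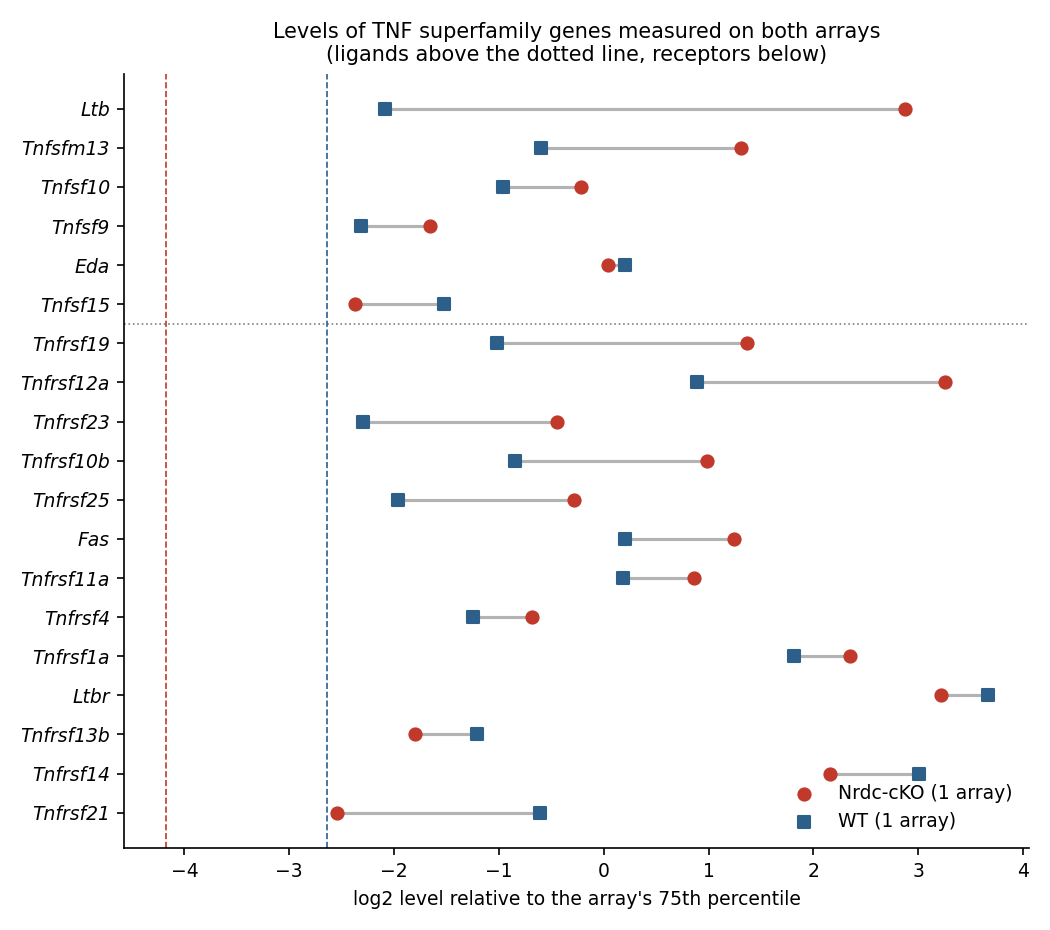
Levels of the 19 members measured on both arrays, with Nrdc-cKO as red circles and WT as blue squares joined by a line, on a log2 scale relative to the 75th percentile of each array. Dashed lines mark the lowest detected level, -4.18 on the Nrdc-cKO array (red) and -2.64 on the WT array (blue), and the WT points of Ltb, Tnfrsf23 and Tnfsf9 lie nearest the WT line.

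Among the ligands, Ltb had the largest difference. Ltb encodes lymphotoxin beta, which with lymphotoxin alpha forms the membrane heterotrimer that binds the lymphotoxin beta receptor and organises lymph nodes. Its processed intensity was 1671 on the Nrdc-cKO array and 16.7 on the WT array. The levels were 2.88 on the Nrdc-cKO array and -2.08 on the WT array, a difference of 4.96 (31.1-fold higher, technical SE 0.29). The technical SE comes from the scanner software's error of each spot and holds nothing of the variation between animals or RNA preparations. The WT signal of Ltb lay within 2-fold of the lowest detected signal, as did those of Tnfrsf23, Tnfrsf25 and Tnfsf9. Normexp, a background correction, here also added 50 units to every spot, and the part of each step was not tested. The differences of these genes moved with it. With normexp and the 75th percentile they were 3.45 for Ltb, 0.59 for Tnfrsf23, 0.46 for Tnfrsf25 and -0.20 for Tnfsf9, and with normexp and quantile scaling 3.57 for Ltb, 0.87 for Tnfrsf23, 0.77 for Tnfrsf25 and 0.30 for Tnfsf9. In whole tissue, a gene at a lower level because fewer cells express it cannot be told apart from one with less RNA per cell.

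Ltb lies beside Tnf and Lta, with 1 gene between Ltb and Tnf and none between Tnf and Lta in RefSeq's gene order on mouse chromosome 17. Tnf encodes the founding cytokine of the family, made above all by macrophages, and Lta encodes lymphotoxin alpha of lymphocytes. Both were seen in Nrdc-cKO only. Lta had an intensity of 20.1 there and 11.3 on the WT array, not well above background, which gave no fold. The 2 Tnf probes had 47.1 and 40.7 on the Nrdc-cKO array and 12.3 and 2.38 on the WT array, and the bound of the gene was at least 1.15-fold. A lower limit near 1 sets no upper size for Tnf, so its size cannot be ranked against that of Ltb.

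The 250 bases before the start of these 3 genes, and of Tnfsf18, are shown because Ltb and Tnfsf18 carry the largest difference and the largest bound of the superfamily, and Tnf and Lta lie beside Ltb. They come from RefSeq, build GRCm38.p6, at chr17:35194257-35194506 on the plus strand for Ltb, chr17:35202008-35202257 on the minus strand for Tnf, chr17:35205352-35205601 on the minus strand for Lta and chr1:161494407-161494656 on the plus strand for Tnfsf18. Capitals mark a match to the NF-kappaB consensus or to TATAAA.
Ltb: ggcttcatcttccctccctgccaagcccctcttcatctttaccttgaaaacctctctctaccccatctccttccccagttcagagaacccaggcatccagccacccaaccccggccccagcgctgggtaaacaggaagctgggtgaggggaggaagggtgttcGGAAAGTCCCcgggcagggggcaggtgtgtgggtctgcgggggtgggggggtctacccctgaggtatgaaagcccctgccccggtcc
Tnf: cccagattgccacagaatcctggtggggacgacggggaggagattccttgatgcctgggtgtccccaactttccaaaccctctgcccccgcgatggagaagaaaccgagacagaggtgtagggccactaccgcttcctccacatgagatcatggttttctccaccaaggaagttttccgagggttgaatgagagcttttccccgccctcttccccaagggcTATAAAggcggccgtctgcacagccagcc
Lta: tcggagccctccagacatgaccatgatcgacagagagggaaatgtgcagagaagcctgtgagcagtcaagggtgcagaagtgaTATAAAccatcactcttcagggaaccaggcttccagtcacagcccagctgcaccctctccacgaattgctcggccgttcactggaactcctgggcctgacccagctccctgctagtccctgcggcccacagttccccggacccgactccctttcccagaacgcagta
Tnfsf18: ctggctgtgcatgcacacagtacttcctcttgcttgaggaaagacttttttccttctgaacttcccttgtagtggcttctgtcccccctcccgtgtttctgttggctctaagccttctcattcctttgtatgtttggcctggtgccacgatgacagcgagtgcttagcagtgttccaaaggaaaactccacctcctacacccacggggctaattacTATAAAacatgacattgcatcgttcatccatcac
The sequences were searched on both strands for the NF-kappaB consensus of 10 letters and for TATAAA, and no match of one kind overlapped one of the other. Ltb held an NF-kappaB consensus 87 bases before its start, as did 3.90% of 32851 promoter windows of that length. Tnf held TATAAA 29 bases before its start, Lta 167 and Tnfsf18 34 bases before theirs, and 12.4% of all windows held it. Promoter windows were found for 34 members (38 windows), of which 3 windows held the NF-kappaB consensus and 6 held TATAAA. A match describes the letters and says nothing of binding in these glands.

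Tnfsfm13 is the read-through gene that joins Tnfsf12 and Tnfsf13, so its probe may also take up transcripts of either. It had an intensity of 565 on the Nrdc-cKO array and 46.7 on the WT array, a difference of 1.91 (3.76-fold higher, technical SE 0.22). Tnfsf12, which encodes TWEAK, the ligand of Tnfrsf12a, was seen in Nrdc-cKO only, with 126 there and 13.8 on the WT array, at least 2.83-fold higher. Both probes of this locus thus stood higher on the Nrdc-cKO array.

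Tnfsf14, which encodes LIGHT, a ligand of the lymphotoxin beta receptor and of HVEM, had the largest bound on the Nrdc-cKO side. It had an intensity of 183 on that array and 7.25 on the WT array, at least 4.99-fold higher. Tnfsf13b, which encodes the B cell survival factor BAFF, had 48.2 on the Nrdc-cKO array and 7.05 on the WT array, at least 1.32-fold higher. Fasl, the ligand of Fas on cytotoxic lymphocytes, had 31.1 on the Nrdc-cKO array and 11.3 on the WT array, and gave no fold.

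Tnfsf18 was the only member with a bound on the WT side. It encodes the ligand of GITR, a costimulatory receptor of regulatory and activated T cells. Its intensity, by 1 probe, was 4.07 on the Nrdc-cKO array, not well above background, and 101 on the WT array. It was at least 25.8-fold lower in Nrdc-cKO, and 10 of 10 alternatives that gave a bound put it past 2-fold, between 3.57-fold with normexp and quantile scaling and 26.6-fold with quantile scaling. Passing 2-fold was not particular to Tnfsf18, as under 75th percentile scaling all 200 genes detected on the WT array only did so. The unscaled intensity of Tnfsf18 was lower in Nrdc-cKO as well, where the typical gene had a higher one.

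The other ligands measured on both arrays differed by less than 2-fold. Tnfsf10, which encodes TRAIL, had intensities of 196 on the Nrdc-cKO array and 36.3 on the WT array, a difference of 0.75 (technical SE 0.23). Tnfsf9, which encodes 4-1BB ligand, had 72.0 on the Nrdc-cKO array and 14.3 on the WT array, a difference of 0.65 (technical SE 0.33). Both ligands stood on the higher side, within 2-fold. Eda, an ectodysplasin of skin appendages, differed by -0.16, with intensities of 234 on the Nrdc-cKO array and 81.5 on the WT array, and its second probe was not well above background on either. Tnfsf15, which encodes TL1A, an endothelial and myeloid ligand, had 59.0 and 32.8 by its 2 probes on the Nrdc-cKO array and 45.1 and 13.4 on the WT array. The probe differences were -1.29 and -0.39, with a gene value of -0.84. The WT signal of the dimmer probe, 13.4, lay within 2-fold of the lowest detected WT signal, 11.4. Cd40lg, Cd70, Tnfsf4, Tnfsf8 and Tnfsf11, ligands mostly of activated lymphocytes and other immune or bone cells, were not well above background on either array.

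**Figure D2:**
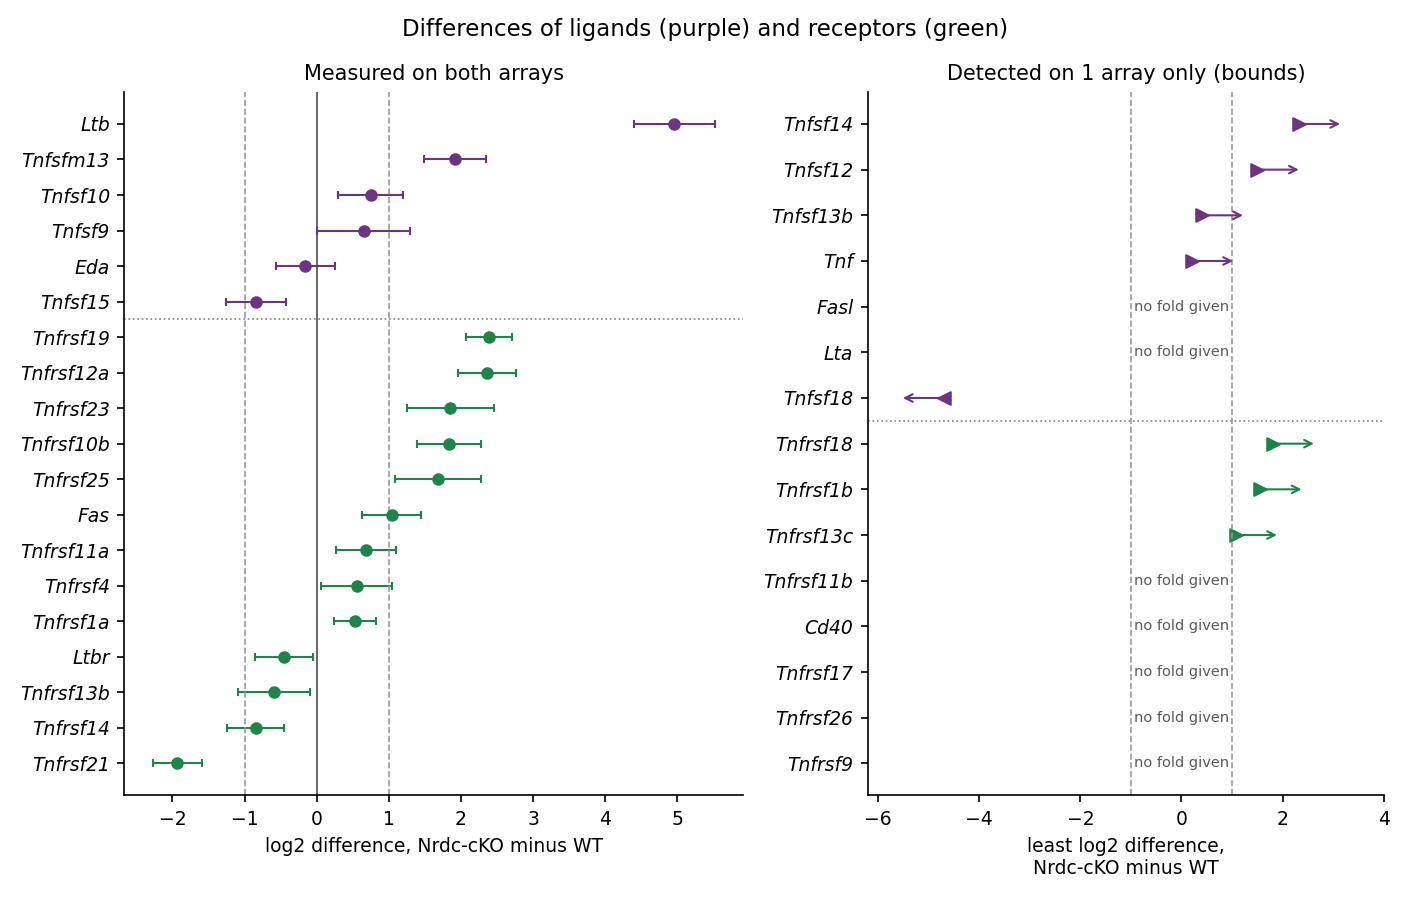
Differences of the 19 members measured on both arrays (left, points with technical 95% intervals) and bounds of the 15 members detected on 1 array only (right, triangles with arrows towards larger differences), on the log2 scale, ligands in purple above receptors in green. Ltb stands at 4.96, Tnfrsf21 at -1.93 and the bound of Tnfsf18 near the left edge, and dashed lines mark 2-fold.

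Tnfrsf12a and Tnfrsf19 had the largest differences among the receptors. Tnfrsf12a encodes Fn14, the receptor of TWEAK that injured epithelium and stroma induce. Its intensity was 2171 on the Nrdc-cKO array and 131 on the WT array, a difference of 2.36 (5.14-fold higher, technical SE 0.21). Tnfrsf19 encodes TROY, a receptor of epithelial progenitors and of the nervous system. Its 2 probes had 1277 and 270 on the Nrdc-cKO array and 42.9 and 28.4 on the WT array, and gave differences of 3.21 and 1.57, with a gene value of 2.39 (5.24-fold higher, technical SE 0.16).

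The receptors with a death domain were 6, of which 5 were measured on both arrays, 3 of them past 2-fold higher (60.0%, against 12.8% of all genes) and 1 past 2-fold lower (20.0%, against 17.3%). Tnfrsf10b encodes the mouse TRAIL receptor, and Tnfrsf25 encodes DR3, the receptor of TL1A. Tnfrsf10b had intensities of 450 on the Nrdc-cKO array and 39.3 on the WT array by the probe measured on both, a difference of 1.83 (3.56-fold higher, technical SE 0.23). Tnfrsf25 had 187 on the Nrdc-cKO array and 18.1 on the WT array, a difference of 1.68 (3.21-fold higher, technical SE 0.31). Fas, the receptor of Fasl, had 538 on the Nrdc-cKO array and 81.5 on the WT array, a difference of 1.04 (2.05-fold higher, technical SE 0.21), and its second probe, seen on the Nrdc-cKO array only, was at least 1.63-fold higher. Fas therefore stood just above 2-fold, and Tnfrsf11a, at 0.68, was the nearest receptor under it.

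Tnfrsf1a and Tnfrsf21 were the other death domain receptors measured. Tnfrsf1a, the ubiquitous TNF receptor, had 333 and 4037 by its 2 probes on the Nrdc-cKO array and 71.4 and 874 on the WT array, differences of 0.54 and 0.52 and a gene value of 0.53 (technical SE 0.15). Tnfrsf21 encodes DR6, a receptor of neurons and lymphoid cells, and its 2 probes had intensities of 34.4 and 44.4 on the Nrdc-cKO array and 47.7 and 45.0 on the WT array. Its level was -2.54 on the Nrdc-cKO array and -0.61 on the WT array, a difference of -1.93 (3.81-fold lower, technical SE 0.18). Among the 19 members measured on both arrays, Tnfrsf21 alone had a lower unscaled intensity in Nrdc-cKO, by a small margin, and its difference was -0.03 with spike-in scaling.

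The decoy receptors were 3. Tnfrsf23, a mouse decoy receptor for TRAIL, had an intensity of 167 on the Nrdc-cKO array and 14.4 on the WT array by 1 probe, a difference of 1.85 (3.61-fold higher, technical SE 0.31). Its 2 other probes were not well above background on either array, so 1 probe carries the value, and the difference was 0.01 with no filter on dim probes. Tnfrsf22, its decoy neighbour, was not detected. Tnfrsf11b, which encodes osteoprotegerin, the soluble decoy of RANK ligand, was seen on the Nrdc-cKO array only and gave no fold.

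The receptors seen on the Nrdc-cKO array only were 8, and 3 had a bound past 2-fold (37.5%, against 22.2% of all genes seen on that array only). Tnfrsf18, which encodes GITR, had an intensity of 128 on the Nrdc-cKO array and 10.8 on the WT array, at least 3.49-fold higher. Tnfrsf1b, the TNF receptor of leukocytes and endothelium, had 108 on the Nrdc-cKO array and 5.44 on the WT array, at least 2.94-fold higher. Tnfrsf13c, which encodes the BAFF receptor of B cells, had 76.8 on the Nrdc-cKO array and 2.74 on the WT array, at least 2.10-fold higher. The other 5 were Cd40, of antigen-presenting cells, Tnfrsf9, which encodes 4-1BB of activated T cells, Tnfrsf17, which encodes BCMA of plasma cells, Tnfrsf26 and Tnfrsf11b. Their detected probes had intensities between 16.5 and 30.7 on the Nrdc-cKO array and between 2.50 and 2.88 on the WT array, and after scaling they lay under the WT limit and gave no fold. With normexp and the 75th percentile no bound on the Nrdc-cKO side reached 2-fold: it was 1.52-fold for Tnfsf14, 1.11-fold for Tnfrsf18, 1.07-fold for Tnfrsf1b and 1.06-fold for Tnfsf12, and Tnfrsf13c gave none.

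The rest of the receptors measured on both arrays differed by less than 2-fold. Tnfrsf11a, which encodes RANK, had 413 on the Nrdc-cKO array and 80.2 on the WT array and differed by 0.68, and its second probe, seen on the Nrdc-cKO array only, was at least 2.20-fold higher. Tnfrsf4, which encodes OX40 of activated T cells, had 141 on the Nrdc-cKO array and 29.9 on the WT array and differed by 0.56. Both stood on the higher side. Ltbr, the receptor of Ltb, had 2112 on the Nrdc-cKO array and 899 on the WT array and differed by -0.45. Tnfrsf13b, a B cell receptor for BAFF and APRIL, had 65.3 on the Nrdc-cKO array and 30.6 on the WT array and differed by -0.59. Its second probe was not well above background on either array. Tnfrsf14, which encodes HVEM, had 1017 on the Nrdc-cKO array and 569 on the WT array and differed by -0.85. Its second probe, seen on the Nrdc-cKO array only, had 17.9 there and 9.73 on the WT array, and gave no fold. Ltbr, Tnfrsf13b and Tnfrsf14 stood on the lower side relative to the 75th percentile, while their unscaled intensities were higher in Nrdc-cKO. Cd27, Edar and Tnfrsf8 were not well above background on either array.

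**Figure D3:**
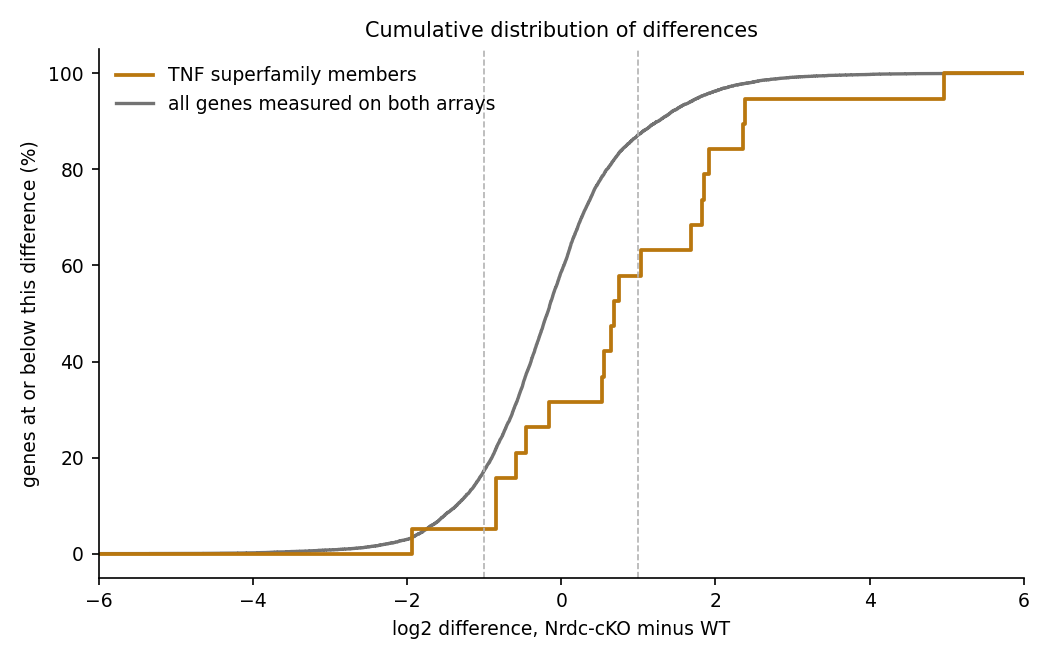
Share of genes at or below each log2 difference, Nrdc-cKO minus WT, for the 19 members measured on both arrays (orange) and for all 13001 genes measured on both (grey). The members' curve lies to the right of the curve of all genes over most of its range, with medians of 0.68 and -0.18, and dashed lines mark 2-fold.

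Partners stood on the same side of 0 in some textbook pairs and on opposite sides in others. Of 26 ligand and receptor pairs, 16 had both ends detected on the Nrdc-cKO array and 3 on the WT array. Both ends were measured on both arrays in 3 pairs: Ltb at 4.96 with Ltbr at -0.45, Tnfsf10 at 0.75 with Tnfrsf10b at 1.83, and Tnfsf15 at -0.84 with Tnfrsf25 at 1.68. The TWEAK pair was higher at both ends in Nrdc-cKO, with a bound of 2.83-fold for Tnfsf12 and 5.14-fold for Tnfrsf12a. The GITR pair went opposite ways, with a bound under 75th percentile scaling of 25.8-fold lower for Tnfsf18 and 3.49-fold higher for Tnfrsf18 in Nrdc-cKO. The lowest bounds under the alternatives were 3.57-fold for Tnfsf18, 1.11-fold for Tnfrsf18 and 1.06-fold for Tnfsf12. Tnfsf18 lies on mouse chromosome 1 next to Tnfsf4, which was not well above background on either array. In RefSeq's gene order 25 of the 45 members formed 16 such neighbouring pairs, with at most 9 genes between them.

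Superfamily receptors outside the name rule were few. Ngfr, the low-affinity neurotrophin receptor, was at least 6.15-fold higher in Nrdc-cKO, and Eda2r, a receptor of ectodysplasin, at least 2.23-fold higher. Relt, chosen after its value was seen, differed by -0.08.

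Of 29 genes that carry receptor signals inside the cell, as adaptors or in cell death, 26 were measured on both arrays. Past 2-fold higher were 3 of the 26, against 12.8% of all genes, and none was past 2-fold lower, against 17.3%. Their differences ran from -0.97 to 2.33, with 16 above 0, 10 below 0 and a median of 0.13. Map3k14, the kinase of non-canonical NF-kappaB signalling, differed by 2.33, Mlkl, the executioner of necroptosis, by 1.74, and Bid, which links death receptors to mitochondria, by 1.17. The WT signals of Map3k14 (19.4) and Mlkl (15.1) lay within 2-fold of the lowest detected WT signal, 11.4. Ripk3, the kinase that activates Mlkl, was at least 5.10-fold higher and Traf1, an adaptor of TNF receptors that NF-kappaB induces, at least 4.96-fold higher, both seen in Nrdc-cKO only. Edaradd, the adaptor of Edar, was not well above background on either array.

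Of 25 genes known to respond to TNF, 16 were measured on both arrays. Past 2-fold higher were 11 (68.8%), against 12.8% of all genes, and none was past 2-fold lower, against 17.3%. Their median difference was 1.58, against -0.18 over all genes. Of the 25, 7 were seen in Nrdc-cKO only, against 12.4% of all named genes. The chemokines Ccl5, Cxcl10 and Ccl2 differed by 5.01, 3.71 and 3.27, and Cx3cl1 and Il6, seen on that array only, were at least 11.7-fold and 9.25-fold higher. The WT signal of Ccl5, 14.1, lay within 2-fold of the lowest detected WT signal, 11.4. Genes known to respond to the lymphotoxin beta receptor were 10, of which 5 were measured on both arrays, with 4 past 2-fold higher (80.0%, against 12.8% of all genes), 1 past 2-fold lower (20.0%, against 17.3%) and a median difference of 1.64. The adhesion molecule Vcam1 differed by 2.71, the lymphoid chemokine Ccl21a by 1.65 and the NF-kappaB subunit Relb by 1.64, while Glycam1, a ligand of L-selectin on high endothelial venules, differed by -1.02. The B cell chemokine Cxcl13 was at least 91.8-fold higher and Ccl19, a lymphoid chemokine, at least 7.01-fold higher in Nrdc-cKO, and Madcam1 and Chst4 were not well above background on either. Many of these genes answer to other signals too, and Relb, Nfkb2, Vcam1 and Icam1 stand in both lists. Like the other lists here, both were chosen with earlier results of these data known, so their shares are descriptions only.

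Of 8 genes that cut TNF ligands and receptors or control the cutting, all were measured on both arrays, with 2 past 2-fold higher (25.0%, against 12.8% of all genes), 1 (Nrdc) past 2-fold lower (12.5%, against 17.3%) and a median difference of 0.46. Adam8, a metalloproteinase of leukocytes, differed by 2.04 and Timp3, an inhibitor of ADAM17, by 1.32. Adam17, chosen after its value was seen, differed by 0.48.

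Immune and stromal marker genes also differed between the arrays. Of 15 macrophage markers, 14 were measured on both arrays and 13 stood past 2-fold higher (92.9%, against 12.8% of all genes), with a summed level of 189 on the Nrdc-cKO array and 54.7 on the WT array. Fibroblast markers stood past 2-fold higher for 9 of 9 measured on both arrays (100.0%, against 12.8%), with a summed level of 908 on the Nrdc-cKO array and 240 on the WT array. Of 13 B cell markers, 4 were measured on both arrays, none past 2-fold higher (against 12.8%) and 1 past 2-fold lower (25.0%, against 17.3%). Another 8 were seen in Nrdc-cKO only, against 12.4% of all named genes. Of these, 5 had a bound past 2-fold, against 22.2% of all genes seen on that array only. The summed level of B cell markers was 11.3 on the Nrdc-cKO array and 3.57 on the WT array, with Blk not well above background on either. Cd79b was at least 21.0-fold higher and Ms4a1 at least 9.42-fold higher in Nrdc-cKO, while Pax5 differed by -1.93 and Cd79a by -0.39, and the median of the 4 measured on both arrays was -0.14.

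T cell markers did not all run the same way. Of 15, 4 were measured on both arrays, none past 2-fold higher (against 12.8% of all genes) and 2 past 2-fold lower (against 17.3%). Another 10 were seen in Nrdc-cKO only, against 12.4% of all named genes. Of these 10, 4 had a bound past 2-fold, against 22.2% of all genes seen on that array only. The summed level of T cell markers was 23.4 on the Nrdc-cKO array and 33.7 on the WT array, with Cd8a not well above background on either. Il7r was at least 4.49-fold higher in Nrdc-cKO, while Cd6 differed by -1.84. Endothelial markers had a summed level of 29.3 on the Nrdc-cKO array and 13.1 on the WT array, islet markers 2958 on the Nrdc-cKO array and 382 on the WT array, and adipocyte markers 743 on the Nrdc-cKO array and 20.7 on the WT array. Median differences over the markers measured on both arrays were -0.39 for 3 of NK cells, 0.10 for 2 of plasma cells, -0.22 for 3 of neutrophils, -0.57 for 3 of lymph node stroma, 0.59 for 8 of ducts and -0.04 for the 1 of dendritic cells. These medians leave out markers seen in Nrdc-cKO only, which were 12.4% of all named genes. Such markers were 3 of 8 for NK cells, 4 of 6 for plasma cells and 4 of 8 for neutrophils. For lymph node stroma they were 3 of 7, and for dendritic cells 7 of 9. Bounds past 2-fold were held by 1, 3, 3, 2 and 2 of them in that order, against 22.2% of all genes seen on that array only. Ltb, Tnfsf14, Tnfrsf1b and Tnfrsf13c are known from leukocytes and Tnfrsf12a from epithelium and stroma, so these marker values stand beside theirs, and the part of the markers in the members' differences was not tested.

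**Figure D4:**
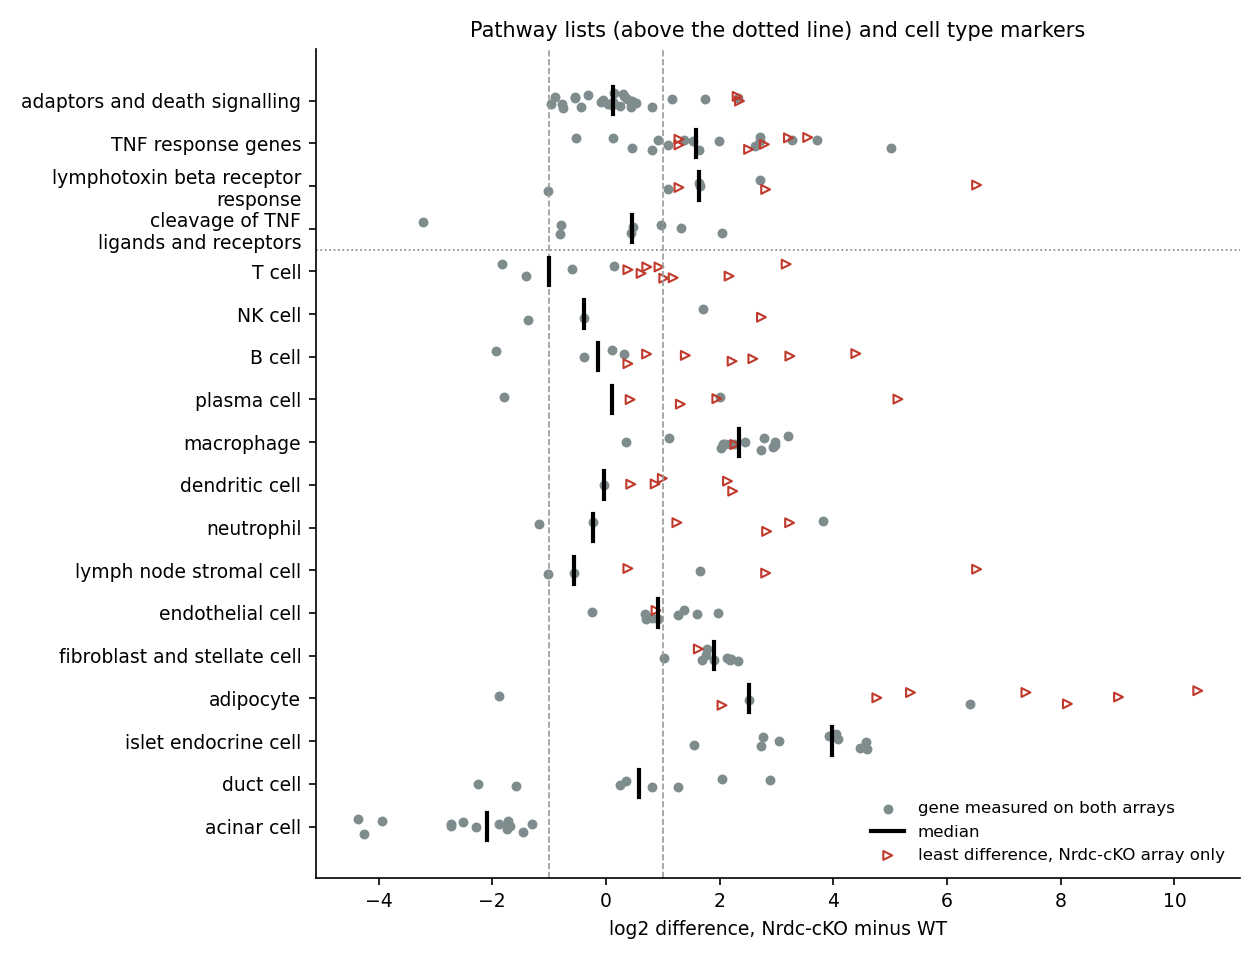
Log2 differences, Nrdc-cKO minus WT, of genes in the pathway lists (above the dotted line) and the cell type marker lists (below it), with grey points for genes measured on both arrays, black bars for medians and red triangles for bounds above 0 of genes seen on the Nrdc-cKO array only. Macrophage and fibroblast markers lie to the right with medians of 2.35 and 1.91, and acinar markers to the left with -2.09.

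Across 12 other ways of processing, 5 of the 9 members past 2-fold stayed past it in every one that gave a value: Ltb, Tnfsfm13, Tnfrsf19, Tnfrsf12a and Tnfrsf10b. Fas, Tnfrsf23, Tnfrsf25 and Tnfrsf21 fell short in at least 1, with Tnfrsf25 at 0.46 and Tnfrsf23 at 0.59 under normexp and the 75th percentile, Fas at 0.84 at its lowest, and Tnfrsf21 at -0.03 with spike-in scaling. All 9 kept their sign in these settings. Of the 10 members under 2-fold, 3 (Tnfrsf11a, Tnfsf10 and Tnfrsf1a) kept their sign in every setting, while the signs of the other 7 depended on the scaling or on normexp. The members' median minus that of all genes was 0.86 here and lay between 0.52 and 1.01 in the other settings.

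**Figure D5:**
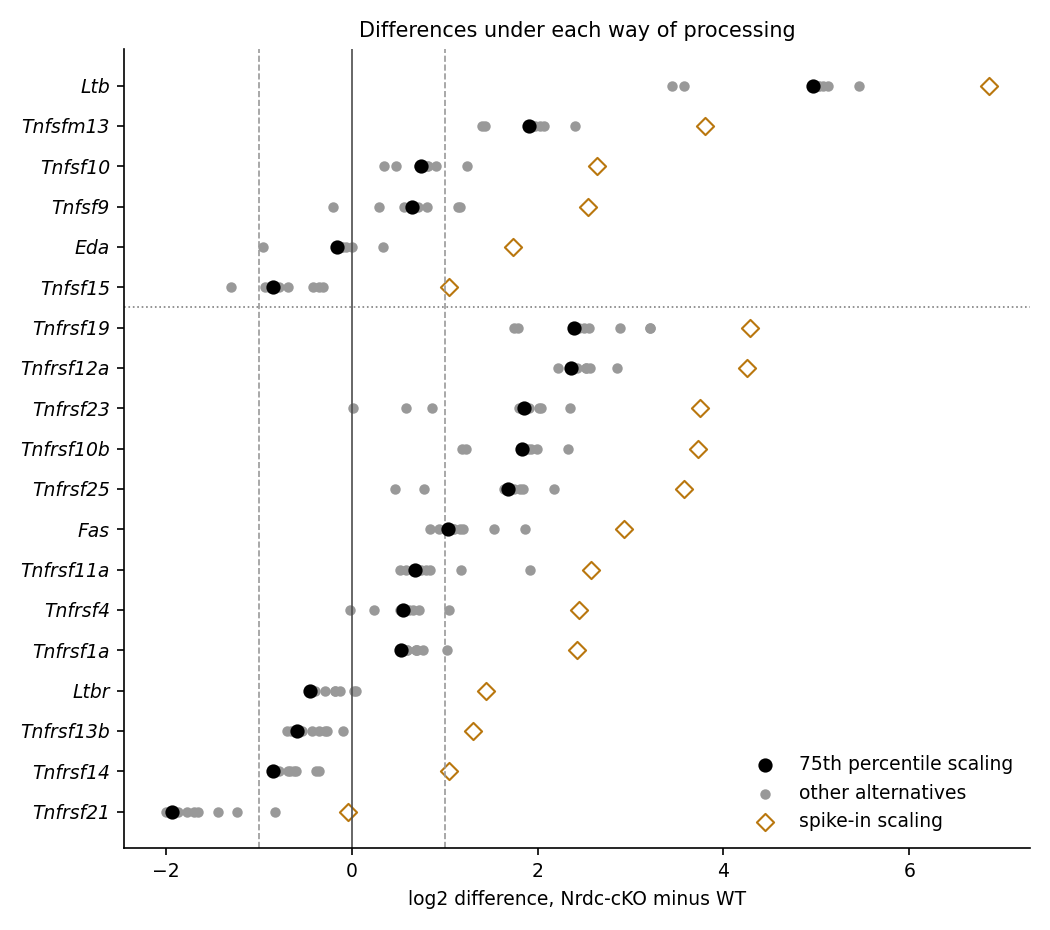
Log2 difference, Nrdc-cKO minus WT, of each member measured on both arrays under 75th percentile scaling (black), spike-in scaling (open diamonds) and the other ways of processing (grey), with dashed lines at 2-fold. Ltb, Tnfsfm13, Tnfrsf19, Tnfrsf12a and Tnfrsf10b lie right of 2-fold under each, and Tnfrsf21 lies left of 2-fold in most and near 0 with spike-in scaling.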

How the data were processed

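Total RNA of Nrdc-cKO and of WT pancreas was measured with the dye Cy3 on 1 Agilent 1-colour mouse array each, per the labels. Groups were taken from the sample titles. Agilent Feature Extraction gave a background-corrected processed intensity, its error and flags per spot, per the file headers, in version 12.0.3.1; the submitters' processing notes name 11.5.1.1. The deposited intensities were linear and not normalized between arrays. A deposited value table gave that intensity multiplied by the authors' constant for each array, 1.92 for Nrdc-cKO and 4.37 for WT, without centring; the basis of these constants was not stated.

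Of 62976 spots per array, 59305 were not controls; none was saturated, and 74 outlier spots on Nrdc-cKO and 80 on WT were left out, leaving 56604 probes, 32993 of them named through RefSeq accessions (table of assembly GRCm38.p6; the array design uses another build). The log2 of the deposited intensity minus each array's 75th percentile was the level. A probe counted as detected with 0.5 or more of its spots flagged well above background, a gene was the mean of its probes detected on both arrays, and 2-fold (log2 of 1) was the size named. Nrdc was listed as Nrd1. The technical SE had a median of 0.21 over the members measured on both arrays, and 291 probes with repeat spots had a median SD of 0.031, with no member among them. Every member could be named; of each pathway list, the 3 highest and 3 lowest genes past 2-fold and the 2 largest bounds each way; of each marker list, the 2 genes furthest from 0 and the 2 largest bounds. Members and lists were chosen with earlier results of these data known. Alternatives were quantile, loess, detected-probe, spike-in and value-table scaling, normexp with 50 units added to every spot (limma 3.58.1, R 4.3.3), other filters on dim probes, other probe rules and other thresholds. Python 3.11.15 with pandas 2.3.3 was used, and the scripts were tested on simulated data. The number of arrays limits the precision.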

Additional observations from a re-analysis of the deposited data

How the results depend on the processing

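Of 214 single values of members under the alternatives, 148 moved by less than 0.42, 66 moved by more and 0 of those past 2-fold changed sign. That cut was the same for every member, the technical 95% half-width at the members' median technical SE of 0.21. Nrdc stood at -2.71 in the value table, -2.23 with normexp and the 75th percentile, -2.20 with normexp and quantile scaling and -1.31 with spike-in scaling. Members at least 2-fold higher were 8 and numbered 3 at 4-fold, 13 in the value table, 2 with bright probes only, 18 with no filter on dim probes, 5 with either form of normexp and 18 with spike-in scaling. Members at least 2-fold lower were 1 and numbered 4 at 1.5-fold, 0 at 4-fold, with bright probes only, with normexp and quantile scaling and with spike-in scaling, 2 with the brightest probe of a gene and 8 with no filter. Members seen in Nrdc-cKO only and bounded past 2-fold were 5 and numbered 9 with loess, 0 with normexp and the 75th percentile, 1 with normexp and quantile scaling and 12 with spike-in scaling. The median of members (0.68) was 1.18 in the value table and 2.58 with spike-in scaling, as was the receptors' median. The ligands' median (0.70) was 1.19 in the value table, 0.12 with normexp and the 75th percentile, 2.59 with spike-in scaling and -0.43 with no filter, which takes in ligands not well above background. All genes at least 2-fold higher (1666) numbered 2617 at 1.5-fold, 485 at 4-fold, 2888 in the value table, 802 with bright probes only, 3108 with no filter and 10381 with spike-in scaling. Those at least 2-fold lower (2252) numbered 4065 at 1.5-fold, 390 at 4-fold, 1074 in the value table, 1255 with bright probes only, 1376 with loess, 8013 with no filter, 1146 and 847 with normexp (75th percentile, quantile) and 115 with spike-in scaling. The 1 regulatory T cell marker measured on both arrays gave -1.90, against a median of 0.88 with no filter. Except where the alternative itself changes the threshold or the genes counted, the cause was not tested. No paired analysis was possible because there was 1 array a group, and no replicate could be left out. Dim WT signals limit Ltb, Tnfrsf23, Tnfrsf25 and Tnfsf9, 1 probe of Tnfsf15, and the listed genes Map3k14, Mlkl, Ccl5 and Cd79a.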
